A study of Mus musculus with 33 samples.

Results

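The nuclear genes for the subunits of the oxidative phosphorylation machinery were followed through 33 mouse libraries. They were taken by gene symbol: Nduf followed by a, b, c, s or v and a number, Sdha to Sdhd, Uqcr, Cox4 to Cox8 and Atp5, with pseudogenes left out. This gave 84 of 21844 genes: 37 of complex I, 4 of complex II, 8 of complex III, 18 of complex IV and 17 of complex V. The symbol rule also places Ndufa4 in complex I, although its protein is now regarded as a complex IV subunit.

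Complexes I and II pass electrons from NADH and succinate to ubiquinone, complex III passes them on to cytochrome c, and complex IV hands them to oxygen. Complexes I, III and IV pump protons out of the mitochondrial matrix, and complex V, the ATP synthase, makes ATP from their return. Pluripotent cells draw much of their ATP from glycolysis, and the balance between glycolysis and respiration changes as they differentiate. Several complex IV subunits exist as a ubiquitous isoform and as a second one known from heart, skeletal muscle, lung or testis.

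All libraries came from mouse embryonic stem cells that differentiated as embryoid bodies in medium without serum, were dispersed on day 2, treated from then on and harvested on day 4; the labels name no strain or cell line. In a first set of 7 libraries the cells received nothing (2 libraries, SFM), SB-431542, an inhibitor of the receptor kinases that activin uses (1 library), or activin A, a ligand of the transforming growth factor beta family, at 3 ng/mL (1 library), 15 ng/mL (2 libraries) or 100 ng/mL (1 library). These were made by DP-seq, in which a defined set of heptamer primers amplifies cDNA, so that reads come from primed sites. Cells given 3 ng/mL also supplied a DP-seq dilution series with 2 libraries each from 10 ng, 1 ng, 100 pg, 50 pg, 10 pg and 1 pg of mRNA, 1 paired-end library from 100 pg, and 1 library from about 500 pg with each of 3 primer sets meant to suppress ribosomal transcripts. The methods were compared on cells given 3 or 100 ng/mL: standard RNA-seq from 20 ng (2 and 1 libraries), DP-seq with 44 primers from 50 pg (1 and 2) and SMART-seq, which amplifies whole cDNA, from 50 pg (2 and 2). Apart from the SFM pair, which nothing describes as separate cultures, the pairs are technical replicates, so p-values measure technical spread, and groups of 1 library borrow the spread of the others in the same fit.

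Library totals ran from 427556 to 30609013 counts. The SFM libraries stood apart from each other: over members with a mean of at least 10 counts, the SD of the log2 ratio within the pair was 2.36, against 0.43 in the 15 ng/mL pair, and 42 of 68 members differed more than 2-fold between them. In standard RNA-seq 7 or 8 of 8 pluripotency genes had a count, as did 6 of 6 primitive streak and 6 of 6 endoderm genes in each library. A count was also found for 5 or 6 of 6 neuroectoderm and 7 or 8 of 10 heart and striated muscle genes. A count alone thus does not tell cell types apart. Marker sums over 10 heart and striated muscle genes stayed between 1.07 and 77.2 CPM (counts scaled to a common library total) in the 33 libraries, those over 8 male germ line genes between 0 and 25.9, and those over 6 blood genes between 1.49 and 44.4. In such bulk libraries, fewer cells of a type and less RNA per cell cannot be told apart.

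Levels of different subunits were compared per kilobase of the longest listed transcript, in standard RNA-seq only, as TMM-scaled CPM per kilobase, and means and orders are those at 3 ng/mL unless said otherwise. ATP synthase genes stood highest, with a median of 231 over complex V, followed by 126 for complex III, 123 for complex IV, 113 for complex II and 76.7 for complex I. Atp5b, the catalytic beta subunit, led with 1016 and 998 in the libraries at 3 ng/mL and 867 at 100 ng/mL. Atp5g3, one of 3 genes for the same c-ring subunit, came next at 528 ± 10.1 (SD, n = 2), ahead of Atp5a1, the alpha subunit, at 502 ± 0.55. The libraries of these 2 genes at 3 ng/mL did not overlap, and in the library at 100 ng/mL the order was the other way round, with 267 for Atp5g3 and 523 for Atp5a1. Both lay far below Atp5b in all 3 libraries. Cox4i1, the ubiquitous form of the complex IV subunit 4, was the highest outside complex V at 428 ± 9.45. Atp5h, the d subunit of the stalk, and Cox8a, a small complex IV subunit, stood at 318 ± 3.22 and 318 ± 11.1, with overlapping libraries. The highest of complex III was Uqcrh, the hinge protein, at 301 ± 5.58, and the highest under the complex I symbols was Ndufa4 at 291 ± 4.76. At 100 ng/mL Ndufa4 had 184, below the accessory subunits Ndufa12 at 297 and Ndufa6 at 220. In complex II Sdhd, a membrane anchor, stood at 134 ± 0.85, Sdha, the flavoprotein, at 117 ± 1.85 and Sdhb, the iron-sulfur subunit, at 109 ± 1.92, while Sdhc, the other anchor, was well below them at 34.4 ± 0.68.

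**Figure D1:**
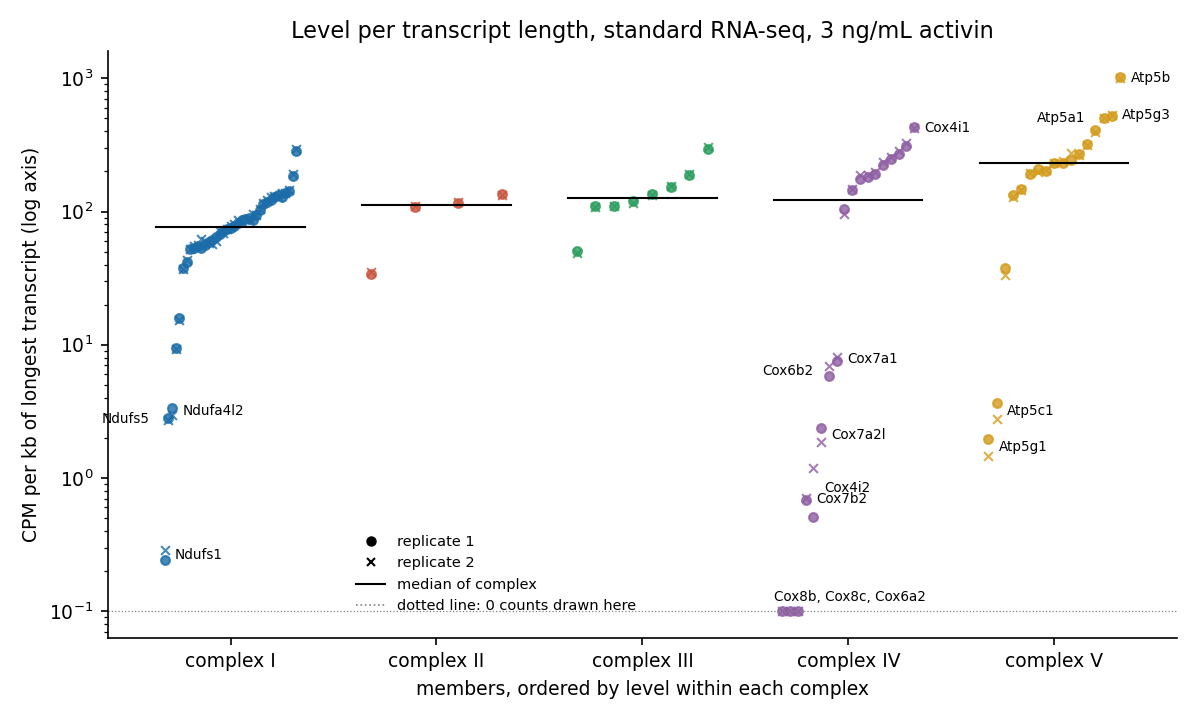
Level of each of the 84 members in standard RNA-seq at 3 ng/mL activin A, as TMM-scaled CPM per kilobase on a log axis, grouped by complex, with a circle for replicate 1, a cross for replicate 2, a bar at the median of each complex and members at 0 counts drawn on the dotted line. Complex V holds the highest member, Atp5b at a mean of 1007, and most of the lowest values belong to tissue isoforms or to genes with several listed transcripts.

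Genes listed with several transcripts were among those with low levels. The 7 members with more than 1 listed transcript (Atp5c1, Atp5g1, Cox6b2, Cox7a2l, Ndufs1, Ndufs6 and Ndufv3) had a median of 3.19 TMM-scaled CPM per kilobase, with a range from 0.27 to 15.7, against 117 over the 77 members with 1 transcript. Ndufs1, the largest complex I subunit, had 111 counts in all 33 libraries together. None of the 32-base stretches of its 4 listed transcripts occurred in only 1 of them. The same share was 6.58% in Cox7a2l, 20.2% in Ndufs6, 21.6% in Cox6b2, 26.7% in Atp5c1, the gamma subunit, 57.3% in Ndufv3 and 76.4% in Atp5g1. Levels did not follow this share, with 1.71 for Atp5g1, whose longest listed transcript has 4715 bases, and 9.35 for Ndufs6. The files count unique reads per transcript, and whether reads shared between transcripts were dropped was not tested, so levels of these 7 genes are uncertain. Ndufs5, an accessory complex I subunit with a single transcript and a share of 100%, was nevertheless low at 2.78 ± 0.06. Cox7c, a small complex IV subunit, shared 43.2% of its stretches with other genes, and its counts are uncertain for that reason.

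Ubiquitous complex IV isoforms stood far above their tissue counterparts on the same scale of TMM-scaled CPM per kilobase. Cox4i1 had 435 and 421 in standard RNA-seq at 3 ng/mL and 431 at 100 ng/mL, whereas Cox4i2, known from lung, had 0.509, 1.18 and 0.937. Cox7a2 had 180, 187 and 108, and Cox7a1, the heart and muscle form, 7.53, 8.04 and 15.4. Cox6b1 had 271, 287 and 195, and Cox6b2, the testis form, 5.85, 6.87 and 7.15. In each of these sets the isoforms did not overlap in any library. Cox7b had 144, 147 and 106, and Cox7b2, also known from testis, 0.682, 0.706 and 0.898. Cox6a2, Cox8b and Cox8c were not counted in any of the 33 libraries, while Cox6a1 had 192, 199 and 328 and Cox8a 311, 326 and 332. In the deepest library a count of 0 allows up to 3 counts of 30609013. Ndufa4l2, a paralogue of Ndufa4 known as a target of hypoxia signalling, had 3.37, 2.97 and 13.4, against 287, 294 and 184 for Ndufa4. Of the c-ring genes, Atp5g3 (521, 535 and 267) and Atp5g2 (413, 397 and 283) were both far above Atp5g1 (1.96, 1.46 and 2.21), whose counts are uncertain as said.

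Upstream sequences of some of these isoforms are shown beside the differences in their levels. They are the 250 bases before the transcript start in RefSeq's promoter table, build GRCm38.p6, 5′ to 3′ on the gene's strand. Capitals mark matches to the motif of NRF1, a regulator of nuclear genes for mitochondrial proteins, searched on both strands as GCGC, any base, then TGCGC, or to an ETS core, searched on both strands as CCGGAAG.
Cox6a1 (chr5:115348959-115349208, minus strand): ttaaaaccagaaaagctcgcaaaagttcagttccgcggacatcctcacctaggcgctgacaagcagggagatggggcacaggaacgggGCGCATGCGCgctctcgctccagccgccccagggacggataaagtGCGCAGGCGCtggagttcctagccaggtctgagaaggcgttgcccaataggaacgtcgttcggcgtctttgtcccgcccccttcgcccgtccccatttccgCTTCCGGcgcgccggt
Cox7a2 (chr9:79759854-79760103, minus strand): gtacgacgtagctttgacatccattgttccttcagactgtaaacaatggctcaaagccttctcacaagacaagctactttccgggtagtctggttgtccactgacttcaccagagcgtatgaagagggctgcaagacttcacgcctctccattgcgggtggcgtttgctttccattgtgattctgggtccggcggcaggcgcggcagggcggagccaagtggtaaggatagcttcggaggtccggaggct
Cox7a1 (chr7:30183921-30184170, plus strand): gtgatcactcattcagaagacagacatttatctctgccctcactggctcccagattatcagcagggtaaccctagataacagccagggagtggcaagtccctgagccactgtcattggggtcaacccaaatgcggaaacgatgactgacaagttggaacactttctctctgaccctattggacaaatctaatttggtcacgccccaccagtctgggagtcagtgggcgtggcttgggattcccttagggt
Cox8a (chr19:7217617-7217866, minus strand): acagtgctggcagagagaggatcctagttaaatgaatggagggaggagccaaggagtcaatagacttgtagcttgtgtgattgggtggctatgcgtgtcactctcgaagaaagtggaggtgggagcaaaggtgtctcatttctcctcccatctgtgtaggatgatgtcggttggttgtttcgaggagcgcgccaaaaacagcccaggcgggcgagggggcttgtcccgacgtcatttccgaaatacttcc
Cox8b (chr7:140900447-140900696, minus strand): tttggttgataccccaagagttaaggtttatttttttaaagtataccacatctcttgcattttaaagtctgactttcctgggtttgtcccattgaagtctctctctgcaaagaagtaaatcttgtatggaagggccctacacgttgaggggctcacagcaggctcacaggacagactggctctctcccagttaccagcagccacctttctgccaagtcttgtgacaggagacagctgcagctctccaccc

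Cox6a1 held 2 matches to the NRF1 motif and 1 to the ETS core, and the others held neither. The pairs differed in CpG dinucleotides, with 14 in Cox7a2 and 4 in Cox7a1, and 11 in Cox8a and 1 in Cox8b. Among the 64 members with a listed promoter that are not tissue isoforms, 12 (18.8%) held the NRF1 motif, against 3.86% of 27025 promoters, 1 for each gene in the table. The ETS core was found in 11 of the 64 (17.2%), against 7.05% of all promoters, and the TATAAA sequence in 6 (9.38%), against 13.0%. The 4 tissue isoforms in the table held neither of the first 2. The 64 had a median of 14.5 CpG dinucleotides and the 4 tissue isoforms 6, against 6 over all these promoters. The NRF1 and ETS motifs both contain a CG, and the part of CpG content in their shares was not tested. A match is a description of these letters, and the table holds no entry for Cox4i1, Cox4i2 or Cox6a2.

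In the first DP-seq set the members took between 1.23% and 1.60% of all counts, and few were called in the tests across activin doses. Ndufv2, a core iron-sulfur subunit of complex I, was the most abundant member by counts in all 7 libraries, at 2469 and 3451 CPM in SFM, 2791 with SB-431542, 2626 at 3 ng/mL, 3350 and 3113 at 15 ng/mL and 3041 at 100 ng/mL. Sdhd had 1570 and 1950 CPM in SFM, 1251 with the inhibitor, 2209 at 3 ng/mL, 1650 and 1675 at 15 ng/mL and 2396 at 100 ng/mL. For neither gene did the levels follow the order of the doses. Across the dose steps from SFM to 100 ng/mL, edgeR's quasi-likelihood test with Benjamini-Hochberg adjustment called 0 of 72 tested members, and 0.397% of all genes tested. The smallest adjusted p among members was 0.404, DESeq2 also called 0 of 72, and 1531 of 12102 genes had an unadjusted p below 0.05. The spread in this trend test came from the SFM and 15 ng/mL pairs, and the SFM libraries stood far apart. Its 0 calls therefore cannot show that members did not move. SB-431542 against SFM gave 0 of 72 members and 0% of all genes with edgeR, 179 genes at an unadjusted p below 0.05, and 0 members with DESeq2. This rested on the SFM pair: without the second SFM library 0 members were called higher and 5 lower, and without the first 33 higher and 14 lower. These counts stand without a share over all genes and show only how far the result hung on the pair. Cox7c shows the split, with 627 CPM in the first SFM library and 0.153 in the second, and 225 to 545 in the other 5.

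At 100 against 3 ng/mL within this set, 2 of 72 members were called, beside 5.19% of all genes, both accessory subunits of complex I and both higher. Ndufb3 had 123 CPM at 3 ng/mL, 248 and 200 at 15 ng/mL and 244 at 100 ng/mL, a log2 change of 0.97 ± 0.29 (edgeR adjusted p = 0.0189). Ndufb7 had 5.54, 14.3 and 9.87, and 12.5 CPM, a log2 change of 1.17 ± 0.35 (edgeR adjusted p = 0.0234). In both genes the single 3 ng/mL library was the lowest of those given activin. Ndufb3 had 201 CPM in each SFM library and with the inhibitor, and Ndufb7 had 16.2, 0.766 and 16.8. DESeq2 called neither.

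Standard RNA-seq gave a different picture for 100 against 3 ng/mL, with 22 members higher and 40 lower of 78, beside 62.3% of all genes tested (31.1% higher and 31.1% lower). The spread in this fit came from 1 technical pair, whose log2 ratios had an SD of 0.11 over members, and a joint fit with the other methods called 17 members, or 3 without either of the libraries at 3 ng/mL. No share over all genes stands beside the counts of the joint fit. Within standard RNA-seq the members' median log2 change was -0.11 and that of all genes -0.01. Complex I had 10 higher and 18 lower of 36, complex II 1 and 3 of 4, complex III 2 and 4 of 8, complex IV 4 and 5 of 13 and complex V 5 and 10 of 17.

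Several small accessory subunits fell most in standard RNA-seq. Ndufa2, an accessory subunit of the complex I matrix arm, had 74.2 and 79.6 CPM at 3 ng/mL and 18.1 at 100 ng/mL, a log2 change of -2.06 ± 0.09 (edgeR adjusted p = 8.78e-107). Ndufc1, another accessory subunit, had 40.7 and 41.5, then 13.2 CPM, a change of -1.62 ± 0.11 (edgeR adjusted p = 1.87e-42). In complex V, Atp5e, the epsilon subunit of the central stalk, had 85.7 and 86.1, then 25.1 CPM and changed by -1.75 ± 0.08. Atp5k, the e subunit of the membrane part, had 91.7 and 102, then 29.5 CPM and changed by -1.69 ± 0.08. Others fell less. Uqcrfs1, the Rieske iron-sulfur protein of complex III, had 150 and 150, then 74.1 CPM, a change of -0.995 ± 0.05. Cox5a, a complex IV subunit on the matrix side, changed by -0.89 ± 0.05, and Cox7a2 by -0.77 ± 0.06. Sdhd changed by -0.66 ± 0.05 and Sdhc by -0.49 ± 0.06, while Sdhb rose by 0.12 ± 0.05 (edgeR adjusted p = 0.0233). Ndufa4l2 rose by 2.08 ± 0.21, Ndufs6 by 1.64 ± 0.17, Cox7a1 by 0.98 ± 0.25, Cox6a1 by 0.75 ± 0.05 and Atp5d, the delta subunit, by 0.54 ± 0.04, all with an edgeR adjusted p of 0.000357 or less. Beside these changes the summed endoderm markers went from 615 and 614 to 1164 CPM. Primitive streak markers went from 735 and 724 to 673 and mesoderm markers from 65.7 and 58.5 to 16.4. Streak and mesoderm markers had risen in the dose set, so the sets differed in marker changes as well as in library method. The part of these markers in the result was not tested here.

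Fits within each low-input method called fewer members than the fit within standard RNA-seq, yet a larger share of members than of all genes. DP-seq from 50 pg called 1 higher and 4 lower of 75, beside 3.43% of all genes. The joint fit called 3 higher and 14 lower of 80 in DP-seq, as many in all as in standard RNA-seq, and 23 or 27 without 1 of its libraries at 100 ng/mL. Within its own fit SMART-seq called 2 higher and 5 lower of 80, beside 1.35% of all genes. The SMART-seq calls all had an adjusted p between 0.0144 and 0.0441, and edgeR called 0 when any 1 of the 4 libraries was left out or when the replicate number was a block, while DESeq2 called 35. Over all genes tested, that DESeq2 fit of SMART-seq called 575 higher and 560 lower. Summed endoderm markers went from 485 to 2495 and 2111 CPM in the DP-seq libraries from 50 pg and from 245 and 281 to 1195 and 1276 in SMART-seq. Pluripotency markers went from 392 to 1019 and 969 CPM and from 272 and 259 to 383 and 431, primitive streak markers from 516 to 375 and 411 and from 295 and 330 to 207 and 223, and mesoderm markers from 42.05 to 5.53 and 7.62 and from 14.2 and 23.5 to 0.656 and 6.49. The part of these markers in the result was not tested.

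Ndufa4 and Cox6c, a small complex IV subunit, were called lower in standard RNA-seq, DP-seq from 50 pg and SMART-seq, and not in the dose set. Ndufa4 had 176 and 180, then 111 CPM in standard RNA-seq (log2 change -0.66 ± 0.05), 623, then 352 and 311 in DP-seq (-0.92 ± 0.20) and 1327 and 1309, then 968 and 1034 in SMART-seq (-0.45 ± 0.06). Every library at 100 ng/mL was below those at 3 ng/mL of its method. Cox6c had 114 and 119, then 93.0 CPM (-0.30 ± 0.05), 63.6, then 17.1 and 25.4 (-1.60 ± 0.44), and 1176 and 1175, then 783 and 872 (-0.56 ± 0.07), again without overlap. In the dose set, with 1 DP-seq library at each dose, Ndufa4 had 136, then 176 CPM (0.37 ± 0.29, edgeR adjusted p = 0.636) and Cox6c 2.80, then 3.75 (0.41 ± 0.45, edgeR adjusted p = 0.788), so that their values went the other way. Cox7b, a small complex IV subunit, was called lower in standard RNA-seq (-0.45 ± 0.05) and SMART-seq (-0.53 ± 0.07), and its DP-seq change of -1.38 ± 0.42 missed the threshold (edgeR adjusted p = 0.0729). Its DP-seq libraries stood at 68.5 CPM at 3 ng/mL and 19.9 and 33.5 at 100 ng/mL. Atp5j2, the f subunit of the ATP synthase membrane part, had 127 and 124, then 62.7 CPM in standard RNA-seq (-0.98 ± 0.06) and 882 and 855, then 628 and 643 in SMART-seq (-0.51 ± 0.06). Its DP-seq values of 46.1, then 24.9 and 31.7 CPM gave -0.72 ± 0.44 (edgeR adjusted p = 0.472). Ndufa2 was called in DP-seq too, with 322, then 128 and 119 CPM (-1.39 ± 0.24), and not in SMART-seq, with 539 and 526, then 377 and 411 (-0.49 ± 0.08, edgeR adjusted p = 0.0645). In the dose set Ndufa2 had 21.8, then 34.7 CPM (0.66 ± 0.31, edgeR adjusted p = 0.245).

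Few members were called higher outside standard RNA-seq. Ndufa8, an accessory complex I subunit, had 156 and 156, then 280 and 312 CPM in SMART-seq (0.87 ± 0.10), and Cox4i1 had 1399 and 1365, then 2171 and 2207 (0.61 ± 0.05). Cox4i1 in standard RNA-seq was 326 and 315, then 317 CPM, within the spread of the pair. Atp5b had 365, then 548 and 669 CPM in DP-seq (0.73 ± 0.21, edgeR adjusted p = 0.0476) and 1961 and 1920, then 1644 in standard RNA-seq, so the values moved in opposite directions. Atp5md, a small membrane subunit, was called higher in standard RNA-seq (0.42 ± 0.06) and lower in SMART-seq (-0.57 ± 0.07).

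**Figure D2:**
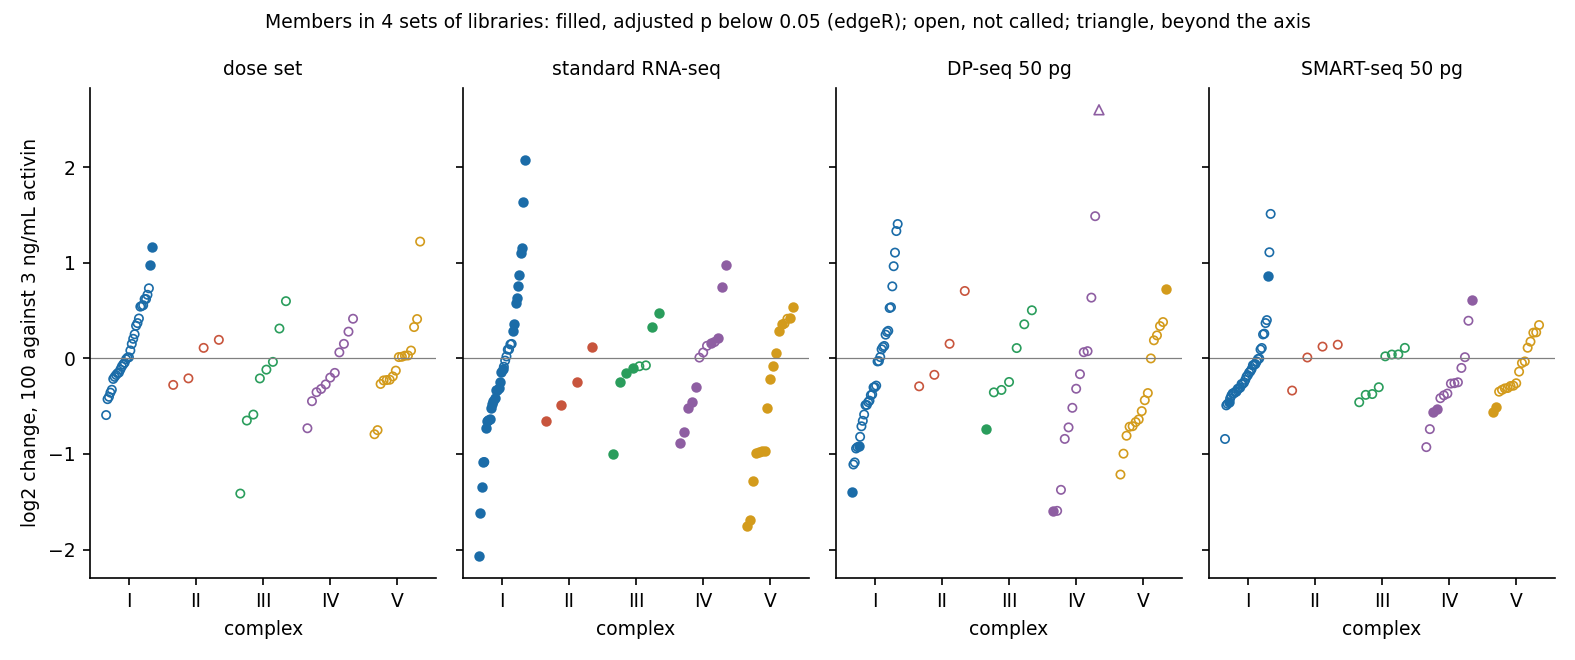
Log2 change at 100 against 3 ng/mL activin A for members in the dose set, standard RNA-seq, DP-seq from 50 pg and SMART-seq from 50 pg, ordered by value within each complex, with a point for each member, filled where the edgeR adjusted p was below 0.05, and a triangle beyond the axis. Ndufa4 lies below 0 in standard RNA-seq, DP-seq from 50 pg and SMART-seq, at -0.66, -0.92 and -0.45, and above 0 in the dose set, at 0.37.

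Over the 75 members tested by all 3 methods, 26 (34.7%) had a negative change in each and 9 (12%) a positive one. Over 10092 genes, not matched to members by length, the same shares were 19.0% and 20.9%. For other genes of up to 600 bases the median change was -0.19 in standard RNA-seq, -0.22 in DP-seq and -0.26 in SMART-seq. Members of that length had -0.09, -0.57 and -0.29. In the next bin, up to 800 bases, other genes had 0.13, -0.11 and -0.14, and members -0.42, -0.27 and -0.11. The part of transcript length in these shares was not tested. The 26 included Ndufa1, Ndufa2, Ndufa3, Ndufa4, Ndufa7, Ndufb2, Ndufb8, Ndufb9, Ndufb11, Ndufc2 and Ndufs3 of complex I, Sdhd, Uqcrfs1 and Uqcrh, Cox5a, Cox6b1, Cox6c, Cox7a2 and Cox7b, and Atp5g2, Atp5j, Atp5j2, Atp5k, Atp5l, Atp5mpl and Atp5o. The 9 were Ndufa8, Ndufb10, Ndufv3, Ndufa4l2, Sdhb, Uqcrc1, Cox4i1, Atp5a1 and Atp5h. These are counts of signs, most of them of members that did not pass the test in every method.

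A joint fit tested whether the activin change itself differed between methods. DP-seq differed from standard RNA-seq in 8 of 80 members, beside 0.739% of all genes, and SMART-seq from standard RNA-seq in 9, beside 0.853%. Between DP-seq and SMART-seq edgeR called 0 of 80, beside 0.0213% of all genes, with 1818 of 14072 genes at an unadjusted p below 0.05 and 7 members called by DESeq2. Atp5g3 was in both lists: 375 and 383, then 188 CPM in standard RNA-seq, 298, then 340 and 370 in DP-seq, and 768 and 747, then 763 and 778 in SMART-seq. Its standard RNA-seq library at 100 ng/mL stood below the pair at 3 ng/mL, its DP-seq libraries at 100 ng/mL stood above the one at 3 ng/mL, and its SMART-seq libraries overlapped. Uqcrb, a small complex III subunit, was in both lists with the opposite sign, at 101 and 103, then 140 CPM in standard RNA-seq, 29.97, then 23.6 and 23.6 in DP-seq, and 1249 and 1219, then 1073 and 1009 in SMART-seq. Both lists rested on single libraries: leaving out either standard RNA-seq library at 3 ng/mL, or either SMART-seq library at 3 ng/mL, gave 0 members in each, without either SMART-seq library at 100 ng/mL the counts were 1 and 0, and without 1 DP-seq library at 100 ng/mL up to 21 and 15 were called. By library totals the SMART-seq list had 4 higher and 0 lower members, in place of 4 and 5, beside 39 and 34 of 14072 genes.

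Other metabolic lists gave these counts in standard RNA-seq at 100 against 3 ng/mL. Of the tricarboxylic acid cycle genes 12 were higher and 3 lower of 17, with a median log2 change of 0.22. Glycolysis genes were split, 8 higher and 8 lower of 17, as were assembly factors of the complexes, 13 and 14 of 40. Of the mitochondrial ribosomal protein genes 33 were higher and 16 lower of 75, with a median of 0.11, and of the cytoplasmic ones 22 higher and 52 lower of 79, with a median of -0.37. The electron carriers had 1 higher and 2 lower of 6, and the regulators of mitochondrial biogenesis 6 higher and 1 lower of 11. The members had 22 higher and 40 lower. Their median of -0.11 lay between that of the cytoplasmic ribosomal proteins and those of the mitochondrial ones and the tricarboxylic acid cycle. No mitochondrially encoded subunit was among the named genes.

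The members' share of all counts differed between library methods. In standard RNA-seq they took 1.01% to 1.13% of counts and in SMART-seq 3.87% to 4.23%, with DP-seq from 50 pg at 0.92% to 1.13%. Standard RNA-seq counts fell on complex V most, with 46.4% to 47.8% of the members' counts, against 29.3% to 30.3% in SMART-seq, where complex I took 35.3% to 36.8%. Of the members' counts in standard RNA-seq, 50% lay in 11 genes, in SMART-seq in 20 or 21, and in DP-seq libraries with the usual primers in 3 to 8.

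SMART-seq against standard RNA-seq at 3 ng/mL gave 78 members higher and 0 lower of 80, beside 58.7% of all genes tested (30.5% higher), with a median log2 difference of 4.09 for members and -0.10 for all genes. Scaling by library totals moved these medians to 2.44 and -1.75. Then 68 members were called higher and 5 lower, beside 1957 and 7673 of 13382 genes. This scaling shifts members and all genes alike, so the directions of the smallest differences depend on it. Uqcr10, a small complex III subunit, had 47.8 and 47.3 CPM in standard RNA-seq and 677 and 692 in SMART-seq, a log2 difference of 5.50 ± 0.13. Cox6c, with 114 and 119 against 1176 and 1175 CPM, differed by 4.99 ± 0.09. At the other end Sdha, the long flavoprotein of complex II, had 338 and 344 against 161 and 183 CPM, which is 0.67 ± 0.15 on the TMM scale and -0.99 by library totals. Atp5b had 1961 and 1920 against 833 and 731 CPM, which is 0.35 ± 0.11 on the TMM scale and -1.31 by library totals. Uqcrfs1, with 150 and 150 against 66.9 and 52.8 CPM, and Ndufs1 were not called.

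Member transcripts are short, with a median of 729 bases against 2482 over all genes, and the difference between SMART-seq and standard RNA-seq went with length. Its median fell from 4.60 over the 26 members of up to 600 bases to 1.64 over the 8 above 1800 bases. For other genes in the same length bins it fell from 3.74 to -0.55. Of the other lists, 70 of 75 mitochondrial ribosomal protein genes were higher with a median of 3.39, and 79 of 80 cytoplasmic ones with a median of 3.42. Medians were smaller for 3 lists, with 1.43 for the tricarboxylic acid cycle (12 higher and 1 lower of 17), 0.67 for glycolysis (10 and 2 of 17) and -0.23 for the regulators (3 and 3 of 11). Assembly factors had a median of 2.61 (27 and 1 of 41) and electron carriers one of 2.72 (4 and 0 of 6).

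**Figure D3:**
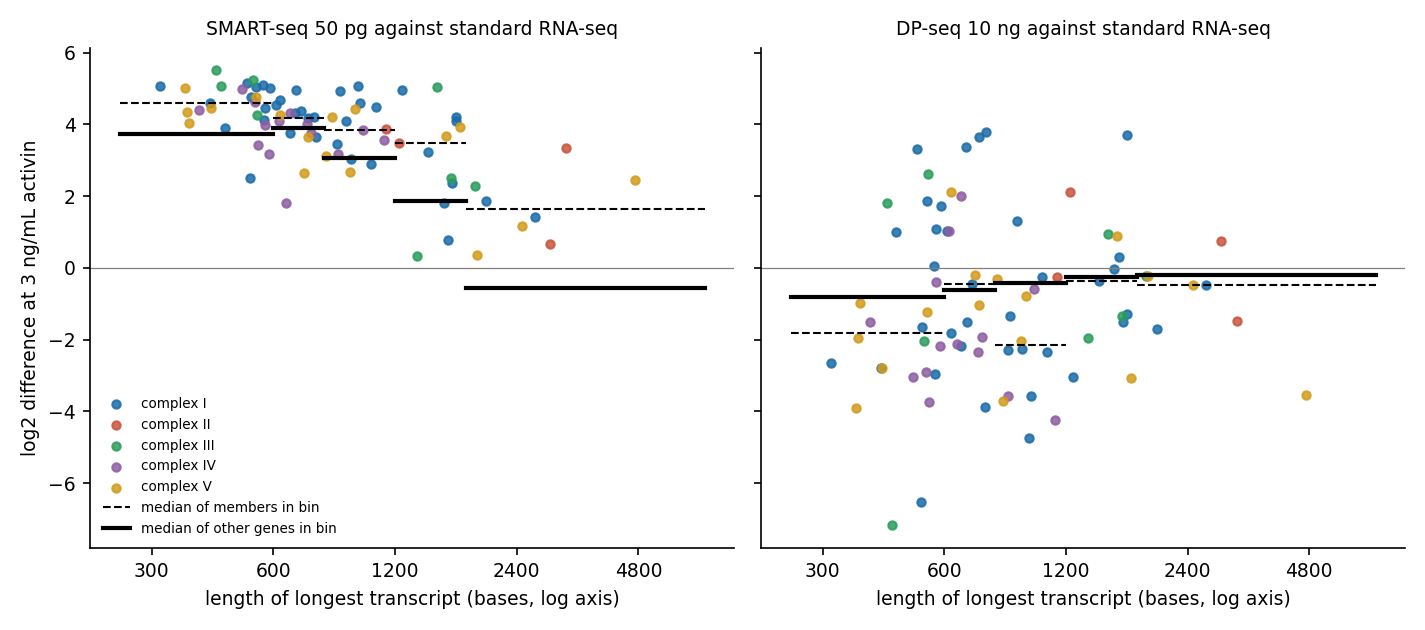
Log2 difference between SMART-seq and standard RNA-seq, and between DP-seq from 10 ng and standard RNA-seq, at 3 ng/mL activin A, against transcript length in bases on a log axis. Each point is a member, coloured by complex, and dashed and thick lines are the medians of members and of other genes in each bin of length; the SMART-seq differences go from a median of 4.60 over members of up to 600 bases to 1.64 over those above 1800 bases.

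DP-seq from 10 ng against standard RNA-seq gave 20 members higher and 48 lower of 80, beside 42% of all genes, with a median of -1.31 for members and -0.22 for all genes. By library totals the medians were -1.91 and -0.82, with 18 members higher and 56 lower, beside 1528 and 5035 of 13382 genes. Here the members went apart in every complex. Ndufv2 had 141 and 147 CPM in standard RNA-seq and 1139 and 1337 in DP-seq, a log2 difference of 3.71 ± 0.12. Ndufb4, an accessory subunit of the same complex, had 52.4 and 60.1 against 1.61 and 1.26 CPM, a difference of -4.76 ± 0.19. Groups of both genes lay far apart, in opposite directions. In complex II Sdhd was higher in DP-seq by 2.12 ± 0.10 and Sdhc lower by a difference of -1.47 ± 0.11. In complex III Uqcrh was higher by 2.63 ± 0.16, while Uqcr11, with 68.0 and 69.5 CPM in standard RNA-seq, had 2 counts in each DP-seq library. Cox7a2 was higher by 2.00 ± 0.10 and Cox8a differed by -3.74 ± 0.13, with 172 and 180 against 8.04 and 8.91 CPM. Atp5h was higher by 2.13 ± 0.17 and Atp5o, the stalk subunit OSCP, differed by -3.71 ± 0.13, with 228 and 224 against 13.5 and 10.2 CPM. By length bin the DP-seq median was -1.81 for members of up to 600 bases, -0.45 up to 800, -2.15 up to 1200, -0.36 up to 1800 and -0.49 above that, with no steady order.

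At the same input, 50 pg, DP-seq against SMART-seq gave 1 member higher (Ndufa3, an accessory complex I subunit, by 0.83 ± 0.09) and 73 lower of 80, beside 55.4% of all genes (31.3% lower). The median was -4.07 for members and -0.33 for all genes. For other genes it was -4.24 up to 600 bases and -4.38 in the next bin, up to 800, against -5.14 and -3.31 for members. The part of transcript length was not tested. By library totals the medians were -3.25 for members and 0.36 for all genes. Then 5 members were higher and 67 lower, beside 4703 and 3001 of 13382 genes. After each library was thinned to the 427556 counts of the smallest, SMART-seq had a count for 77 to 80 members, standard RNA-seq for 76 in each library, DP-seq from 10 ng for 67 and 70, and the second SFM library for 55.

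In the DP-seq dilution series the members' share of counts was 1.00% to 1.05% at 10 ng and 1 ng and 1.54% to 1.87% from 100 pg down. Outside the series, at the same dose, members took 120433 of 10678979 counts in the DP-seq library from 50 pg made for the method comparison. They took 76615 of 5855969 in the paired-end library from 100 pg. Both shares were below those of the series from 100 pg down. All comparisons below share the 10 ng libraries and 1 fit over 12 libraries. From 1 ng edgeR called 0 of 73 members, beside 0% of all genes, with 136 of 10817 genes at an unadjusted p below 0.05, while DESeq2 called 5. From 100 pg 8 members were higher and 0 lower, beside 0.989% of all genes (0.906% higher), and 68 of 73 had a positive difference, against 50.0% of all genes. The counts were 7 and 0 at 50 pg, beside 1.08% of all genes, 13 and 0 at 10 pg, beside 8.37%, and 15 and 7 at 1 pg, beside 24.9%. Leaving out either library of the compared amounts gave 2 or 3 members at 100 pg and at 50 pg, 4 to 17 at 10 pg and 9 to 34 at 1 pg. Without the 1 pg libraries in the fit, a setting chosen after seeing the data, 33 members were called at 100 pg, a count without a share over all genes beside it. By library totals the 1 pg libraries had 8 members higher and 12 lower, beside 484 and 3314 of 10817 genes. Those of 10 pg had 8 and 2, beside 178 and 1210.

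Sdhd was higher at lower inputs, with 453 and 496 CPM at 10 ng, 828 and 746 at 1 ng, 2543 and 2518 at 100 pg, 2900 and 2366 at 50 pg, 2892 and 3072 at 10 pg and 4315 and 4544 at 1 pg. Its log2 difference from 10 ng was 2.77 ± 0.17 at 100 pg and 4.22 ± 0.18 at 1 pg. Within this series, libraries of 10 ng, 1 ng and the lower inputs did not overlap for this gene. Outside it, the DP-seq library from 50 pg made for the method comparison had 522 CPM at the same dose, near the 10 ng level, and the paired-end library from 100 pg had 1309.95 CPM. Ndufa3 went from 197 and 184 CPM at 10 ng to 864 and 961 at 100 pg and 571 and 686 at 1 pg, a difference of 2.62 ± 0.23 at 100 pg. Ndufv2 had 1139 and 1337, then 2602 and 2837 CPM at 100 pg (1.49 ± 0.17), and 2119 and 2363 at 1 pg. The other members called at 100 pg were Ndufa4 (2.09 ± 0.23), Ndufa11, an accessory subunit of the complex I membrane arm (2.21 ± 0.36), the core protein Uqcrc2 (1.60 ± 0.28), Uqcr10 (2.46 ± 0.42) and Uqcrq (2.63 ± 0.37) of complex III. Atp5b went the other way, from 1038 and 1124 CPM at 10 ng to 546 and 465 at 100 pg and 323 and 296 at 1 pg, and was called lower at 1 pg only (-0.80 ± 0.25, edgeR adjusted p = 0.0429). Uqcr10 had 101 and 118 CPM at 10 ng, 466 and 474 at 100 pg and 319 and 260 at 10 pg. At 1 pg it had 9.36 and 2.23 CPM, which are only 4 and 1 counts. Its level was thus highest in the middle of the series, with 1 pg values near the floor.

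At the smallest input fewer members were counted, in libraries of lower depth. A count was found in both libraries for 75 of 84 members at 10 ng, 79 at 1 ng, 75 at 100 pg, 73 at 50 pg, 69 at 10 pg and 49 at 1 pg, where 23 had none. After thinning to 427556 counts, 83.3% and 79.8% of members had a count at 10 ng and 67.9% and 61.9% at 1 pg. Over all genes these shares were 46.8% and 46.4% at 10 ng and 29.7% and 29.0% at 1 pg. Ndufb7 and Atp5d, with 55 and 113, and 58 and 243 counts at 10 ng, had 0 in both 1 pg libraries, whose totals of 427556 and 448933 allow up to 3 counts each. The SD of the log2 ratio within a pair was for members 0.36 at 10 ng, 0.29 at 1 ng, 0.39 at 100 pg, 0.66 at 50 pg, 1.28 at 10 pg and 2.604 at 1 pg. Over all genes it was 0.44, 0.37, 0.74, 0.96, 1.79 and 3.20.

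**Figure D4:**
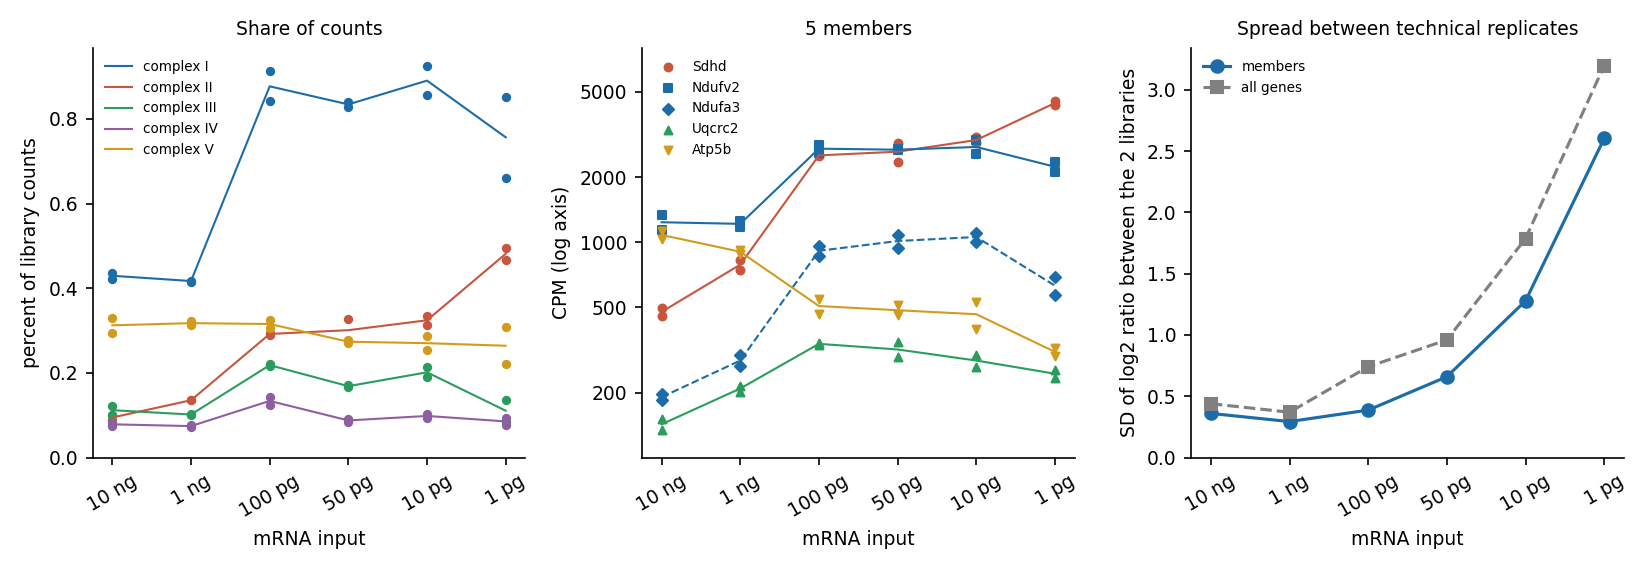
DP-seq dilution series from 10 ng to 1 pg of mRNA: percent of library counts by complex (left) and CPM of 5 members on a log axis (middle), with a point for each of the 2 libraries and lines through their means, and the SD across genes of the log2 ratio between the 2 libraries (right). Sdhd goes from 453 and 496 CPM at 10 ng to 4315 and 4544 at 1 pg, while Atp5b goes from 1038 and 1124 to 323 and 296.

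The change on dilution had no steady order by transcript length among members. At 100 pg the median log2 difference from 10 ng was 1.69 for the 24 members of up to 600 bases, 0.95 up to 800, 0.69 up to 1200, 0.93 up to 1800 and 1.06 for the 7 above that. For other genes in these bins it was 0.96, 1.02, 0.84, 0.43 and -0.16. By library totals the median of all genes moved from 0.00 to -0.36 and that of members from 1.10 to 0.74. The mitochondrial ribosomal protein genes had a median of 1.00 at 100 pg (3 higher and 0 lower of 73), the cytoplasmic ones 0.88 (7 and 0 of 76) and the tricarboxylic acid cycle genes 0.07 (1 and 0 of 17).

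The 3 other primer sets changed which subunits were seen. Each was set against the 1 ng and 100 pg libraries of the usual primers, which all 3 comparisons share. Members took 1.02% of counts with set 1 (95% Wilson interval 1.01% to 1.03%), 1.12% with set 2 (1.11% to 1.13%) and 1.81% with set 3 (1.80% to 1.83%), intervals that cover counting error only. In set 1 14 members were higher and 45 lower of 74, beside 56.3% of all genes. In set 2 there were 18 and 41, beside 63.9%, and in set 3 23 and 36, beside 61.6%. Medians were -1.59, -1.61 and -1.03, against -0.04, -0.43 and -0.40 for all genes. For other genes of up to 600 bases they were -1.29, -1.55 and -2.25, and members of that length had -1.58, -1.63 and -1.24. In the next bin, up to 800 bases, other genes had -1.03, -1.99 and -2.02, and members -1.84, -1.70 and -1.59. The part of transcript length in the members' medians was not tested. By library totals set 3 had 13 members higher and 46 lower, beside 2152 and 5451 of 11559 genes. Set 2 had 15 and 49, beside 2481 and 5121.

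Single genes took large shares. Sdha alone had 4008 CPM and 39.2% of the members' counts with set 1, against 298 to 513 CPM with the usual primers and 99.2 and 181 with sets 2 and 3. Atp5a1 took 23.6% with set 2. Ndufv2, the most abundant member by counts in the first DP-seq set, had 1178 to 2837 CPM with the usual primers and 4.67, 16.9 and 2132 with the 3 sets. It was far below the usual range in sets 1 and 2 and inside it in set 3.

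Subunits of 1 complex did not move together. In complex II, Sdhb had 57.8 to 65.7 CPM with the usual primers and 12.8, 3.39 and 2928 with the 3 sets, so that its log2 difference was -2.29 ± 0.16, -3.55 ± 0.21 and 6.41 ± 0.10. Sdhd had 746 to 2543 CPM and then 129, 11.2 and 61.6, below the usual range each time. In complex III, Uqcrfs1 had 45.8 to 47.6 CPM and then 11.5, 1485 and 76.1, while Uqcrb had 19.6 to 27.1 and then 53.5, 1.99 and 857. In complex IV, Cox4i1 had 50.1 to 70.6 CPM and then 14.5, 2.79 and 2601. In complex V, Atp5md had 5.95 to 8.26 CPM and then 19.0, 1433 and 1.86, and Atp5o 9.26 to 15.8 and then 217, 0.598 and 10.4. Atp5g2 had 97.4 to 165 CPM and then 5.003 and 587, with 2 counts in set 3. The highest of the sets was thus set 1 for Sdha and Atp5o, set 2 for Uqcrfs1, Atp5md and Atp5g2, and set 3 for Sdhb, Uqcrb and Cox4i1.

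Over all members, 30 lay below the range of the 4 usual libraries in each set, 1 (Ndufa10, an accessory complex I subunit, 28.5 to 43.0 CPM and then 150, 54.0 and 67.1) above it in each, and 33 above it in one set and below it in another. Of 66 members counted in all 3 sets, 43 differed more than 10-fold between the highest and the lowest, with a median ratio of 17.5. Between the 4 usual libraries the median ratio was 1.91 and 0 of 74 members differed more than 10-fold. No minimum count was set for these ratios, and some rest on a lowest value of 1 count, as for Uqcrc1 and Atp5d. The counts of members stand without a share over all genes, of which 56.3%, 63.9% and 61.6% were called with the 3 sets. At least 50 counts were reached by 58 members in 1 set or more and by 24 in every set. Complex V took between 6.53% and 65.4% of the members' counts over the sets, complex II 3.33% to 40.8% and complex IV 1.47% to 18.8%.

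**Figure D5:**
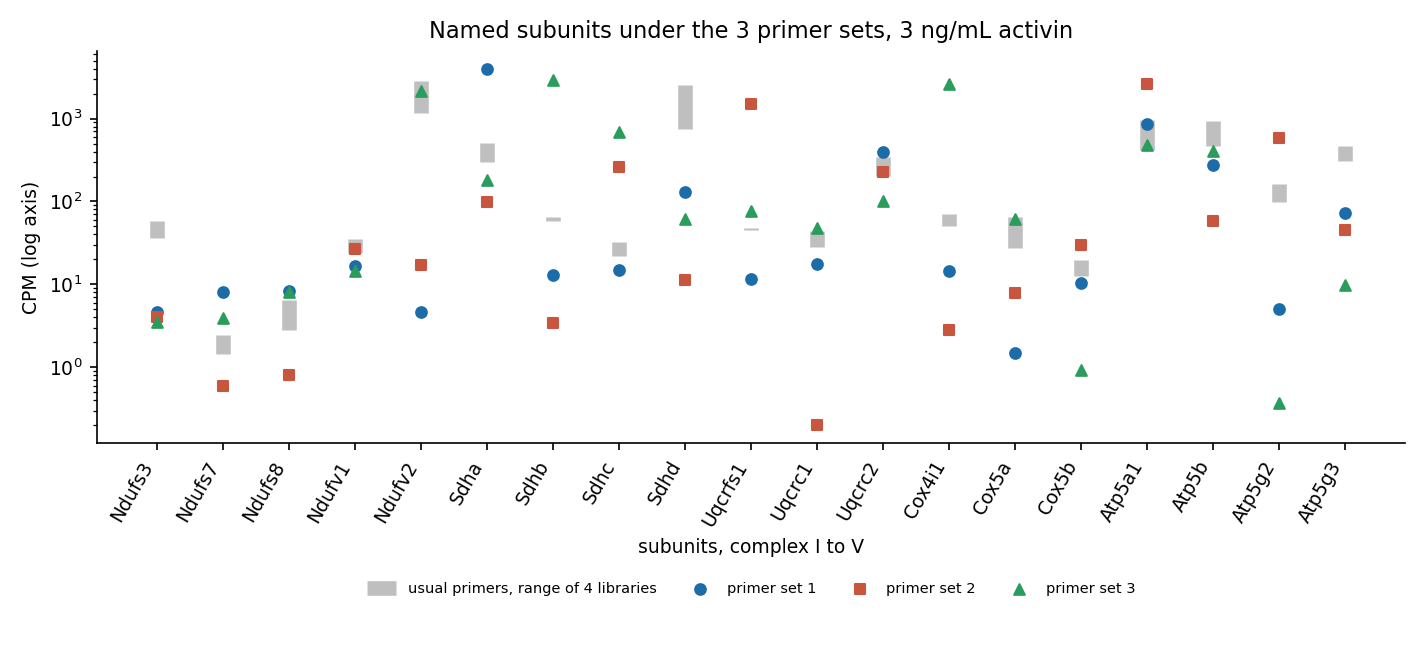
CPM of named subunits with the usual DP-seq primers (grey bars, range of 4 libraries at 1 ng and 100 pg) and with each of the 3 other primer sets (1 library each), on a log axis. Sdhb lies at 57.8 to 65.7 CPM with the usual primers and at 2928 with set 3, whereas Sdhd lies below its usual range in each set.

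The labels do not say which ribosomal transcripts the sets were meant to suppress. The cytoplasmic ribosomal protein genes had 17 higher and 49 lower of 79 with set 1, 19 and 44 with set 2 and 16 and 52 with set 3, with medians of -1.64, -1.83 and -2.54. They held 2.36% to 3.24% of counts in these libraries, against 7.03% to 7.44% at 10 ng and 1 ng with the usual primers. The members' medians were thus of the same sign as those of the ribosomal protein genes and nearer 0 in each set. Of the mitochondrial ribosomal protein genes 16, 21 and 19 were higher and 42, 39 and 42 lower of 73. Paired-end sequencing from 100 pg gave 1.31% of counts to members (95% Wilson interval 1.30% to 1.32%), with Ndufv2 at 25.6% of them and no replicate.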

How the data were processed

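Gene expression was measured in 33 libraries, each with 1 table deposited by the authors. Its values are counts of unique reads for each RefSeq transcript, per the file headers. In all, 8 deposited tables hold 15 values that are not whole, and these were treated as estimated counts and rounded. Which aligner, counting rule and build were used is not given in the sources used here. Of 26566 transcripts, 25857 were named through a RefSeq table and 150 through GENCODE, and counts were summed to 21844 genes; 6 symbols that meet the rule (Cox6c2, Ndufa11b, Ndufb1, Ndufb4b, Ndufb4c and Ndufs6b) had no transcript in the tables.

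Counts were tested with edgeR 4.0.16 (R 4.3.3): filterByExpr by group with a minimum count of 10 and total of 15, TMM scaling, robust quasi-likelihood fits and Benjamini-Hochberg adjustment over all genes tested, at 0.05. Log2 changes carry standard errors after ±, and levels with an n carry SDs. CPM refer to library totals; levels per kilobase and log2 changes are TMM-scaled. The scripts were tested on simulated counts. DESeq2 1.42.0, library totals, no filter, a replicate block and leaving out libraries were alternatives.

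Members and lists were chosen with earlier results of these data known. Named are members past the threshold where 10 or fewer passed, otherwise up to 2 rises and 2 falls per complex, besides fixed isoforms and core subunits; further values of Ndufa2, Ndufa4, Cox6c, Cox7b, Atp5j2, Ndufb8 and Ndufa10 were chosen after being seen. The values of 1 member are not reported here.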

Additional observations from a re-analysis of the deposited data

Results flagged for a closer look

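In 17 cases the change from 3 to 100 ng/mL activin A differed between methods by an interaction test in the joint edgeR fit of 10 libraries, with an adjusted p between 0.015 and 0.0493. Relative to standard RNA-seq, the DP-seq change was higher on the log2 scale by 1.99 for Ndufb6, 2.07 for Ndufs7, 2.16 for Ndufc1, 1.24 for Atp5g3 and 2.16 for Atp5e. It was lower, with a difference of -1.51 for Ndufa6, -0.81 for Uqcrb and -1.79 for Cox7c. Relative to standard RNA-seq, the SMART-seq change was higher by 1.47 for Ndufc1, 1.501 for Ndufa2, 0.88 for Atp5g3 and 1.48 for Atp5k. It was lower for Ndufa12 (-1.48), Ndufa6 (-1.26), Ndufb4 (-1.20), Ndufv2 (-0.70) and Uqcrb (-0.85). Ndufa6, Ndufc1, Uqcrb and Atp5g3 had the same sign against standard RNA-seq in both tests, which share the standard libraries. Ndufa6, an accessory complex I subunit, had 69.7 and 72.9 CPM at 3 ng/mL and 129 at 100 ng/mL in standard RNA-seq, 153, then 106 and 90.2 in DP-seq, and 753 and 707, then 586 and 631 in SMART-seq. Ndufc1 had 40.7 and 41.5, then 13.2 CPM in standard RNA-seq, 4.78, then 7.81 and 6.12 in DP-seq, and 449 and 434, then 410 and 463 in SMART-seq. In both genes the lone standard library at 100 ng/mL moved away from the others of its method, and its part in the result was not tested.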

How the results depend on the processing

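Over the planned settings and 1 chosen after seeing the data (1 pg libraries left out of the dilution fit), 115 counts of called members stayed within 1.5 times and 64 moved; of the named members' values, 1402 kept direction and side of the threshold, 341 were no longer past it, 9 came past it and 7 reversed. The cause was not tested. Counts of called members in this section are printed without the share over all genes, so they cannot be set against it. DESeq2 called 0 members at 100 against 3 ng/mL in the first set, 35 in SMART-seq, 20, 14 and 7 for the differences between methods (DP-seq or SMART-seq minus standard, DP-seq minus SMART-seq), and 5, 23, 14, 23 and 34 from 1 ng down to 1 pg. The joint fit called 17 in standard RNA-seq and 17 in DP-seq, where no filter gave 8 and gave 4 for DP-seq minus standard. Library totals gave 4 for DP-seq minus standard, 4 for SMART-seq minus standard and 5 at 100 pg. Without the 1 pg libraries the counts were 3, 33, 21 and 32 from 1 ng to 10 pg. The replicate numbers did not pair the libraries (correlations of same-numbered deviations from -0.25 to 0.02): with the replicate number as a block SMART-seq gave 0 members and 100 pg gave 5.

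Leaving out 1 library at a time gave 0 members for the dose trend, 0 to 47 for SB-431542, 3 in each case for standard RNA-seq and 23 to 27 for DP-seq (both in the joint fit), 0 for SMART-seq, 0 to 21, 0 to 15 and 0 to 4 for the differences between methods, 58 to 70 for DP-seq against standard RNA-seq, 70 to 79 for SMART-seq against it and 71 to 76 for DP-seq against SMART-seq. For inputs it gave 0 at 1 ng, 2 to 3 at 100 pg and at 50 pg, 4 to 17 at 10 pg and 9 to 34 at 1 pg, and for the primer sets 57 to 68, 57 to 68 and 50 to 67. The members' median at 1 pg reversed to -0.41 by library totals and ran from -0.19 to 0.49 with 1 library left out, reversed without either 1 pg library. By library totals Sdha (-0.99) and Atp5b (-1.31) reversed in SMART-seq against standard RNA-seq, and Cox7b (-0.039) and Uqcrc2 (-0.24) with primer set 2 and Atp5a1 (-0.41) with set 3; against 100 pg alone Uqcrc2 gave -0.14 and Atp5a1 -0.34. With at least 5 counts after thinning, 37 to 76 members were found per library, and without ribosomal protein genes the members' share was 0.98% to 5.76%. Depth limits the 1 pg libraries, with 427556 and 448933 counts.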
